A study of Mus musculus with 15 samples.

Results

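Short interspersed elements (SINEs) are the 32 of 1217 repeat classes whose names in the deposited repeat table begin with B1 to B4, ID, MIR, PB1 or RSINE. They were chosen by this rule on names, with earlier results of these data known. They comprised 3 young B1 classes (B1_Mm, B1_Mus1 and B1_Mus2), 11 older B1 classes (B1_Mur1 to B1_Mur4, B1F, B1F1, B1F2, PB1, PB1D7, PB1D9 and PB1D10), 3 B2 classes (B2_Mm1a, B2_Mm1t and B2_Mm2), B3 and B3A, 4 classes grouped here as B4 (B4, B4A, ID_B1 and RSINE1), 4 ID classes (ID, ID2, ID4 and ID4_) and 5 MIR classes (MIR, MIR3, MIRb, MIRc and MIRm). The 3 young B1 and the 3 B2 classes are called young below, and the other 26 older. All 32 classes held reads in every library, from 3573 to 752088 each, so that no filter on low values removed a member.

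The classes were measured in mouse embryonic stem cells (ESCs) of the E14 line, of 129/Ola background, grown without feeders in serum and LIF. Each of 3 groups held 5 libraries of rRNA-depleted total RNA. All cells received a lentiviral pLKO.1 vector and puromycin (1 µg/ml according to the labels) from 24 h after infection, and were collected after 3 days of selection. The vector carried a non-targeting hairpin (shScr), a hairpin against Tet1 (shTet1) or a hairpin against Tet2 (shTet2). Each depletion rested on 1 hairpin in 1 cell line, and nothing in the labels says whether same-group libraries came from separate infections, so that p-values measure the spread between these libraries only. TET1 and TET2 oxidise methylated cytosine, and the study asked how their loss affects transposable elements.

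SINEs are short retrotransposons without proteins of their own. They are transcribed by RNA polymerase III from a promoter inside the element, made of an A box and a B box, and are copied into new sites by the machinery of L1 elements. B1 descends from 7SL RNA, the RNA of the signal recognition particle, and PB1 classes are early members of that line. B2 descends from a tRNA, ID elements descend from Bc1 RNA, B4 joins ID-like and B1-like parts, and MIR is an ancient family shared among mammals whose copies are no longer mobile. In ESCs and other cells many SINE copies also lie in introns and untranslated parts of genes, where they are transcribed by RNA polymerase II as pieces of the host transcript. The table pooled all copies of a class, so that reads of a SINE's own transcript and reads of a host transcript running through a copy could not be told apart, and in these bulk samples neither could fewer cells with such RNA and less of it per cell.

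The Bc1 gene is printed because other places in the genome share long stretches with it, which bears on where its reads are counted. It was found in the mm9 genome by an exact match of its 300-base RefSeq start window (build GRCm38.p6) and runs over 154 bases at chr7:152100375-152100528 on the plus strand, within an exon of a gene annotated as a microRNA in GENCODE vM1. Capitals mark an A box (positions 14 to 24) and a B box written as GTTCNNNCC (positions 58 to 66), counted from 1 at the 5′ end. The latter letters occur on either strand of 14.4% of 32851 promoter windows of 300 bases, so that the match is a description only.
Bc1: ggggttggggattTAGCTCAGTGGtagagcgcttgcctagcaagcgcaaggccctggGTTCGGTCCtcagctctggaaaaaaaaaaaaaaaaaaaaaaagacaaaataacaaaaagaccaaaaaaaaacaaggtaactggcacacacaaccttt
The first 50 bases of Bc1 occurred without a difference at 25 places in mm9, Bc1 included. Places on 1 chromosome were not considered for display. Of the other places, the 3 with the longest shared starts are shown over 130 bases each, with capitals from the first base that departs from Bc1. They lie at chr13:9053797-9053926 on the minus strand (109 bases shared), chr8:129027210-129027339 on the minus strand (99 bases) and chr4:138879268-138879397 on the plus strand (98 bases).
Copy on chromosome 13: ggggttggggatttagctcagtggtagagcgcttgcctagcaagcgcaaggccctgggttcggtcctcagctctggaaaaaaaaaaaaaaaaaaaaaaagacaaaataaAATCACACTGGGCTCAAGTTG
Copy on chromosome 8: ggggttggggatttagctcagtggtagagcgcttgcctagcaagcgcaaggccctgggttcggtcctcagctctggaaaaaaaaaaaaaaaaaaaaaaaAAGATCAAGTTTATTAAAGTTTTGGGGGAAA
Copy on chromosome 4: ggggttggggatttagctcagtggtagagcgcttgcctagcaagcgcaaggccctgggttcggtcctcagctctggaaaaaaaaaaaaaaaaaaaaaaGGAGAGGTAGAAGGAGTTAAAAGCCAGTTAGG
All 3 copies also lie in exons of genes annotated as microRNAs. A read within the shared stretch has several equally good positions, of which the alignment kept 1, so that a read of Bc1 can be counted at such a copy and the reverse. Which repeat class holds each copy was not looked up. Consensus sequences of B1, B2, B4 and MIR were not used here.

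Values are given on the variance-stabilised scale of the deposited table, which is close to log2 of scaled reads at these depths, and differences on that scale are close to log2 fold changes. Levels are compared between libraries and not between classes, since the length of sequence each class covers was not used here. Libraries held 15258291 to 35432425 gene reads and 7476759 to 19985961 repeat reads. SINEs took between 20.5% (shScr 4) and 30.1% (shTet1 5) of the repeat reads. Tet1 was lower by 1.84 in shTet1 than in shScr (difference −1.84, limma Benjamini-Hochberg adjusted p = 0.000228) and Tet2 differed by −1.90 in shTet2 (limma adjusted p = 3.67e-07), with no overlap of the groups compared. The ESC markers Pou5f1, Sox2, Nanog, Zfp42 and Esrrb lay between 12.15 and 14.73 in all 15 libraries. Of 4 markers of other cells, Col1a1 and Col3a1 lay between 4.25, the table's value for 0 reads, and 6.76, whereas Thy1 (6.48 to 7.77) and Vim (11.26 to 13.20) were present throughout, and none of the 4 passed in the fit on groups alone. With the replicate number as a block, Thy1 was higher in shTet2 than in shScr by 0.71 (limma adjusted p = 0.018), where 4.31% of all tested genes passed. With the same block Vim was higher in shTet2 than in shTet1 by 0.46 (limma adjusted p = 0.00585), where 11.2% passed. The part of these cells or genes in any SINE value was not tested. The repeat level of a library, taken as the median value of the 1155 tested classes outside the SINEs, ranged from 7.75 to 8.87. It was 8.66 to 8.87 in shScr 4, shTet1 3, shTet1 4, shTet2 3 and shTet2 4 and at most 8.33 in the other 10. The 4 of these 5 other than shTet2 3 also held 54.5 to 64.7 reads for every 1000000 gene reads in genes of olfactory and of vomeronasal receptors (genes of sensory neurons), against 11.1 to 26.5 in the other 11 libraries.

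The share of young B1 and B2 in SINE reads varied widely between libraries. It ran from 38.2% in shTet1 1 to 64.5% in shTet1 5, that is, both ends of the range lay in the same group. B2_Mm1a alone took 11.7% (shScr 4) to 25.8% (shTet2 1). MIR classes took 2.20% to 4.01% and ID classes 1.71% to 3.12% of SINE reads.

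**Figure D1:**
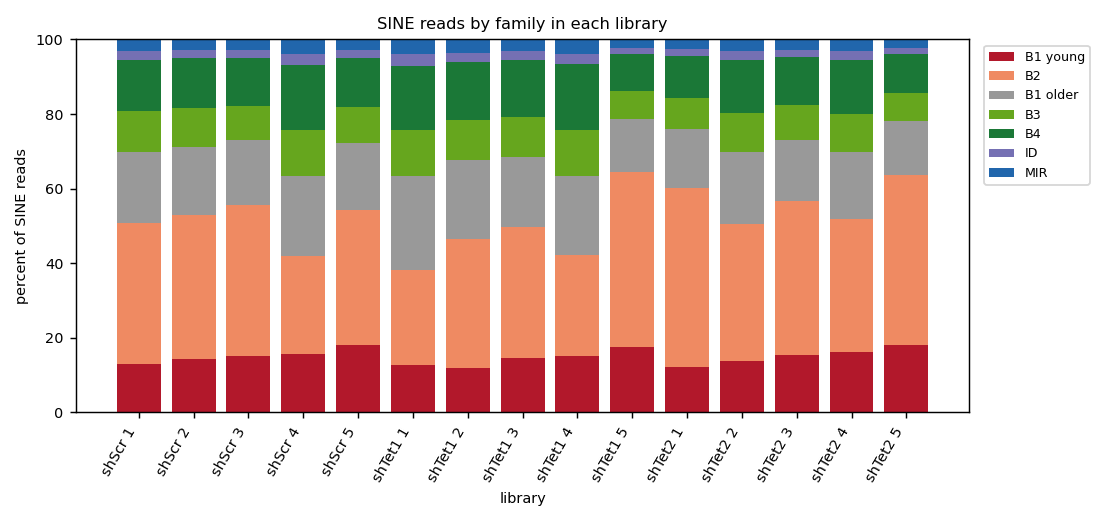
Percent of SINE reads (y axis) in each family, for each of the 15 libraries (x axis), as stacked bars that add to 100. The young B1 and B2 parts together run from 38.2% in shTet1 1 to 64.5% in shTet1 5.

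B1_Mm, a young B1 class, was 15.97, 16.34, 16.10, 16.25 and 16.18 in shScr replicates 1 to 5. In shTet1 it was 15.18, 15.21, 16.27, 16.10 and 16.58, while shTet2 libraries had 15.83, 15.55, 16.68, 16.39 and 16.79, in the same order. The shScr libraries lay close together, whereas replicates 1 and 2 of both knockdowns were below every shScr library and the other knockdown libraries were mixed or above. The mean was −0.30 (95% confidence interval −0.92 to 0.32) from shScr in shTet1 and 0.08 (−0.54 to 0.69) in shTet2. B1_Mus1 had the smallest p-value of all SINEs in shTet1 against shScr. It was 17.22, 17.50, 17.33, 17.45 and 17.33 in shScr. It was 16.42, 16.53, 17.49, 17.35 and 17.66 in shTet1, with shTet2 at 17.13, 16.96, 17.80, 17.61 and 17.90. The groups overlapped in each comparison, and the difference of −0.28 (−0.81 to 0.26) in shTet1 had an unadjusted limma p of 0.291 (limma adjusted p = 1.000).

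B2_Mm1a, the SINE class with the most reads in each of the 15 libraries, was 18.92, 19.12, 18.94, 18.20 and 18.50 in shScr. It was 17.51, 18.26, 18.91, 18.16 and 19.34 in shTet1. It was 19.32, 18.49, 19.44, 18.86 and 19.49 in shTet2. The shTet1 libraries spread on both sides of the shScr libraries, and shTet2 was above shTet1 in each of the 5 same-numbered pairs. B2_Mm1t followed it closely, at 18.22, 18.48, 18.28, 17.65 and 17.87 in the shScr libraries, 16.86, 17.53, 18.26, 17.61 and 18.65 in those of shTet1 and 18.58, 17.80, 18.73, 18.20 and 18.77 in those of shTet2. B2_Mm2 was 17.46, 17.59, 17.19, 17.42 and 17.02 in the shScr libraries, 16.55, 16.69, 17.47, 17.29 and 17.57 in those of shTet1 and 17.37, 16.86, 17.87, 17.57 and 17.77 in those of shTet2. All B2 classes had their lowest library in shTet1 1, and no pair of groups was free of overlap.

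Among older SINEs, 1 class is shown for each family. B3, a tRNA-derived family related to B2, was 17.56, 17.70, 17.19, 17.71 and 17.03 in the shScr libraries, 17.02, 16.99, 17.64, 17.62 and 17.09 in those of shTet1 and 17.14, 17.07, 17.69, 17.50 and 17.30 in those of shTet2. B4 was 15.41, 15.59, 15.22, 15.83 and 15.02 in the shScr libraries, 14.89, 14.92, 15.77, 15.76 and 14.98 in those of shTet1 and 15.03, 15.01, 15.70, 15.63 and 15.29 in those of shTet2. In both families replicate 4 was high in all groups, and shTet1 3 and shTet2 3 were high with it. ID4 was 14.62, 14.71, 14.33, 14.89 and 14.21 in the shScr libraries, 14.28, 14.27, 14.75, 14.79 and 14.21 in those of shTet1 and 14.29, 14.22, 14.77, 14.68 and 14.40 in those of shTet2. MIR was 14.61, 14.70, 14.31, 14.96 and 14.07 in the shScr libraries, 14.25, 14.19, 14.80, 14.86 and 14.03 in those of shTet1 and 14.30, 14.24, 14.84, 14.70 and 14.37 in those of shTet2. The order of libraries was much alike in these 4 classes, with the 5 libraries of high repeat level at or near the top.

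**Figure D2:**
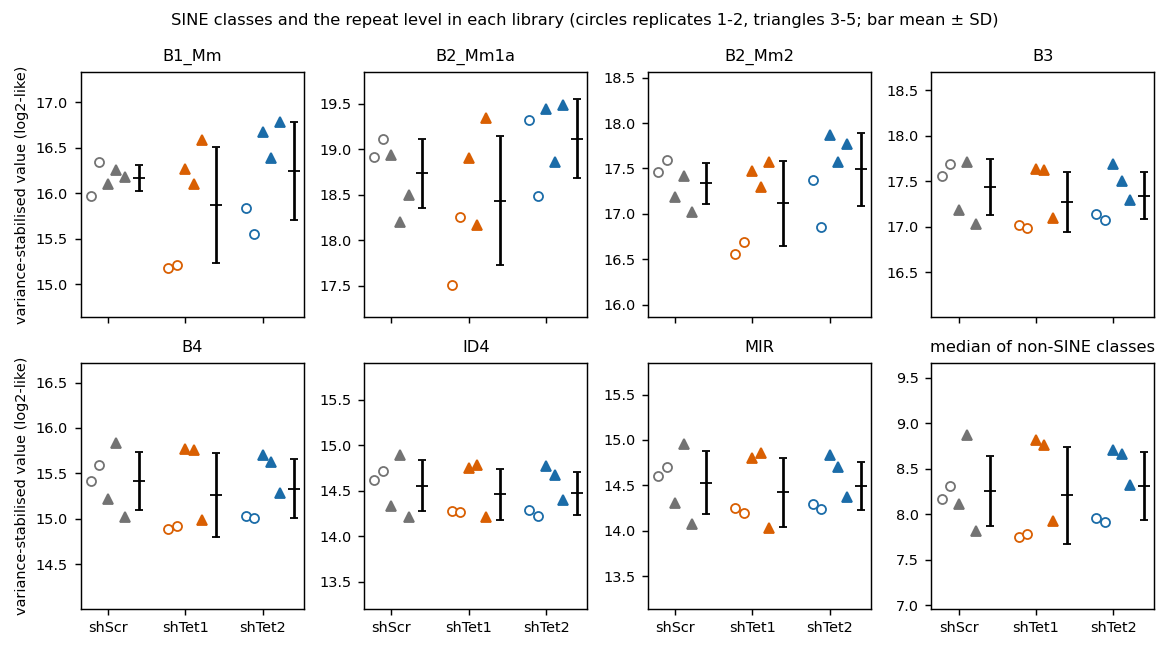
Variance-stabilised value (y axis, log2-like, the same span in each panel) of 7 SINE classes and of the repeat level in each library by group (x axis), with circles for replicates 1 and 2, triangles for replicates 3 to 5, and the mean ± SD of 5 libraries beside them. B1_Mm in shScr stays between 15.97 and 16.34 while shTet1 spans 15.18 to 16.58, and B4 and MIR repeat the pattern of the last panel.

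The first comparison asked whether TET1 depletion shifted SINE RNA. No member passed the threshold (adjusted p under 0.05) in shTet1 against shScr, where 0 of all tested classes did (0% called), and none had an unadjusted p under 0.05, where 0.842% of all tested classes did. No SINE had groups free of overlap (0.168% of all tested classes). The mean was lower in shTet1 for 31 of 32 SINEs, with a median difference of −0.12 against −0.06 over all 1187 tested classes. Of these 1187 classes, 729 were lower. The young classes differed by −0.32 (B2_Mm1t) to −0.22 (B2_Mm2), and the older ones by −0.16 (B3) to 0.01 (PB1D9). By family, the outermost differences were −0.30 in B1_Mm and −0.25 in B1_Mus2 for young B1, −0.16 in B1_Mur2 for older B1, −0.15 in B3A for B3, −0.15 in B4 and −0.12 in ID_B1 for B4, −0.13 in ID and −0.09 in ID4_ for ID, and −0.12 in MIR3 and −0.02 in MIRc for MIR. The intervals were wide beside these values, reaching on median 0.43 to either side of the difference.

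That direction was not shared by the replicates. Means were also compared within replicates 1 and 2 and within replicates 3 to 5, a split that the labels do not name as a batch. With replicates 1 and 2, all 32 SINEs were lower in shTet1, by a median of 0.93 in the young (difference −0.93) and 0.44 in the older (difference −0.44). With replicates 3 to 5, all 32 were higher, by a median of 0.19 in the young and 0.10 in the older. Over all tested classes the medians in the same order were −0.47 and 0.20, of the same signs as in SINEs. Of these 1187 classes, 999 were lower with replicates 1 and 2 and 1002 higher with replicates 3 to 5, so that most repeats shared these directions. Each set held 2 or 3 libraries per group and was not tested.

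TET2 depletion gave no call among SINEs either. In shTet2 against shScr, 0 of 32 passed the threshold (0% of all tested classes), 0 had an unadjusted p under 0.05 (1.26%), and 0 had groups free of overlap (0.505%). Young and older classes had means on opposite sides of shScr. All 6 young classes were higher in shTet2, by 0.05 (B1_Mus2) to 0.38 (B2_Mm1a, interval −0.26 to 1.03, unadjusted p = 0.227 and limma adjusted p = 1.000), and 25 of 26 older classes were lower, from −0.12 in ID2 to −0.01 in MIRm, the exception being MIRc at 0.06. Of all 1187 tested classes, 721 had a higher mean, with a median difference of 0.04. With each library centred on its repeat level, B1_Mus2 lay at −0.01 and the other 5 young classes remained above shScr. Of all 1187 tested classes, 544 were then higher. The other outermost values of their families were 0.11 in B1_Mus1, 0.15 in B2_Mm2, −0.10 in PB1 and −0.02 in PB1D9, −0.10 in B3 and −0.08 in B3A, −0.10 in B4A and −0.05 in RSINE1, −0.02 in ID and −0.11 in MIR3. B2_Mm1t, at 0.32 (−0.31 to 0.94, unadjusted p = 0.304 and limma adjusted p = 1.000), was next to B2_Mm1a. With replicates 1 and 2 all 32 SINEs were lower in shTet2 (young median −0.36, older −0.44), and with replicates 3 to 5 31 of 32 were higher (young 0.48, older 0.16), while the medians of all tested classes were −0.31 and 0.27. Of these 1187 classes, 940 were lower with the first set and 1036 higher with the second.

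Set directly against each other, the knockdowns differed more in B2_Mm1a and B2_Mm1t than in the other 30 SINEs. B2_Mm1a was 0.68 higher in shTet2 than in shTet1 (95% confidence interval 0.03 to 1.33), or 1.61-fold (1.02 to 2.52), and B2_Mm1t 0.63 higher (0.01 to 1.26), or 1.55-fold (1.00 to 2.40). Their unadjusted limma p-values were 0.0401 and 0.0484, the adjusted p of both was 0.999 (limma, Benjamini-Hochberg), and the two-sided exact permutation p was 0.103 for each. B2_Mm2 differed by 0.37 (−0.13 to 0.88) and the young B1 classes by 0.31 (B1_Mus2) to 0.39 (B1_Mus1). Thus 0 of 32 SINEs passed the threshold where 0.253% of all tested classes did, 2 had an unadjusted p under 0.05 (2.70%), and 0 had groups free of overlap (1.18%). Each young class was higher in shTet2 in all 5 same-numbered pairs, and within replicates 1 and 2 (median 0.54) as within replicates 3 to 5 (median 0.30). Of all 1187 tested classes, 830 had a higher mean, 825 within replicates 1 and 2 and 732 within replicates 3 to 5. Pairs were not counted over all classes. The 26 older classes lay between −0.04 (B1F1) and 0.11 (ID), with a median of 0.04 against 0.08 over all tested classes. Centring each library on its repeat level moved the median of all tested classes from 0.08 to −0.03, and then 25 of 26 older classes were lower in shTet2 while all 6 young classes were still higher. Of all 1187 tested classes, 505 were then higher. Without the 4 libraries of high receptor reads all 32 SINEs were higher in shTet2, with a median of 0.24 against 0.38 over all tested classes, and none passed the threshold. Other outermost values were 0.08 in B1_Mur2, 0.07 in B3 and B3A, 0.07 in B4 and 0.03 in ID_B1, −0.01 in ID2, and 0.09 in MIRm and 0.00 in MIRb. Limma with weights estimated for each library called 7 SINEs in this comparison, the 6 young classes (0.86 to 1.17 higher) and B1_Mur4 (0.35 higher, limma adjusted p = 0.0397), where it called 44.7% of all tested classes. In it shTet2 5 had a weight of 6.89 and shTet1 3 and shTet1 4 weights of 0.17 and 0.18, and the call for SINEs appeared in no other alternative run.

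**Figure D3:**
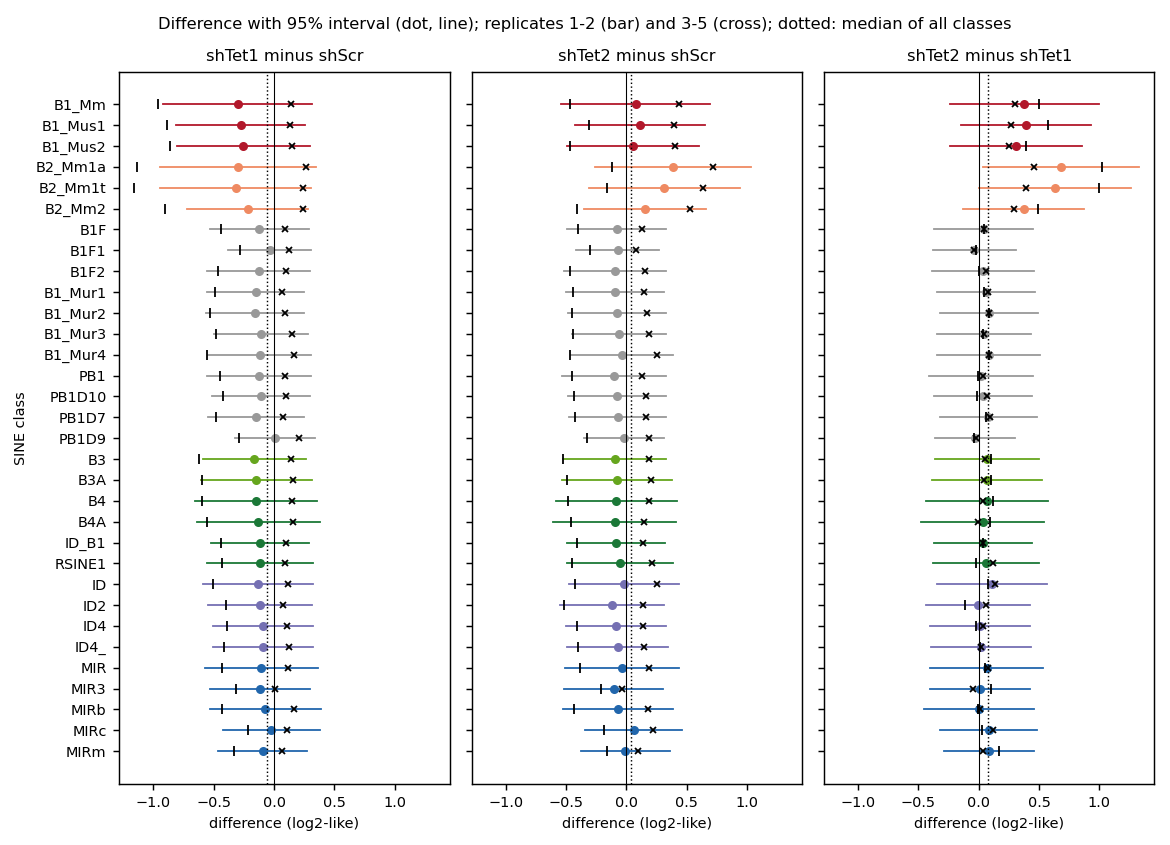
Difference in mean variance-stabilised value (x axis, log2-like) of each SINE class (y axis, coloured by family) in 3 comparisons, with the 95% confidence interval of limma over 15 libraries, the difference within replicates 1 and 2 (vertical bar) and within replicates 3 to 5 (cross), and the median of all tested classes (dotted). The young classes, in the top 6 rows, are set to the right in shTet2 minus shTet1 with both replicate sets, whereas against shScr the replicate sets lie on opposite sides of 0, except in MIR3 of shTet2.

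Within a library, the distance between young and older SINEs can be read without any scaling between libraries, since a scaling factor moves both alike. The median of the 6 young classes exceeded the median of the MIR classes by 3.40, 3.69, 3.65, 3.30 and 3.78 in shScr. The distance was 2.80, 2.93, 3.48, 3.30 and 4.19 in shTet1. It was 3.49, 3.26, 3.70, 3.63 and 4.12 in shTet2. The shTet1 libraries 1 and 2 had the shortest distances of all, and shTet1 5 and shTet2 5 the longest. The group means were 3.57, 3.34 and 3.64. Set against B3 and B4, the distance ran from 0.38 in shTet1 1 to 1.56 in shTet1 5, and against ID from 3.22 to 4.39 in the same libraries. The range over libraries of 1 group thus exceeded the gap between group means in each case, and no test was run on these scores over chosen members.

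The level of all other repeats in a library accompanied older SINEs closely and young SINEs loosely. Deviations of each class from its group mean were correlated over 15 libraries with those of the repeat level, with 100000 permutations within groups and adjustment over all 1187 tested classes. The correlation passed the threshold for 27 of 32 SINEs, where 79.1% of all tested classes did, so that the count itself is near that share. Most of these classes set the level with which they were correlated, so that their share and median r are no yardstick for SINEs. Pearson's r was 0.64 to 0.99 in the older classes (median 0.93) and 0.13 to 0.66 in the young (median 0.60), beside a median of 0.88 over all tested classes. The 5 SINEs that did not pass were B1_Mm, B1_Mus1, B1_Mus2, B2_Mm1a and B2_Mm1t.

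B4A and B4 followed the repeat level most closely, with r = 0.99 and Spearman's rho 0.97 and 0.98 (adjusted permutation p of r 0.000303 for each). B3 had r = 0.93 (rho 0.94), ID4 r = 0.95 (rho 0.86) and MIR r = 0.93 (rho 0.88), all with an adjusted permutation p of 0.000303 for r. The smallest r among older SINEs belonged to PB1D9 (r = 0.64, rho 0.75, adjusted permutation p = 0.016 for r). Among the young, B2_Mm1a had r = 0.13 (rho 0.25, raw permutation p = 0.714 and adjusted p = 0.737) and B2_Mm1t r = 0.20 (rho 0.39, raw permutation p = 0.561 and adjusted p = 0.595). B1_Mm had r = 0.58 (rho 0.62, adjusted permutation p 0.0758 for r and 0.0373 for rho), and B2_Mm2 had r = 0.66 (rho 0.65, adjusted permutation p = 0.0338 for r). The slope, that is, the change of a class per unit of repeat level, was below 1 for every SINE: 0.25 (PB1D9) to 0.87 (B4A) in the older and 0.15 (B2_Mm1a) to 0.65 (B1_Mm) in the young. The median slope of all 1187 tested classes was 0.96, but 1155 of them set the repeat level, so that this median is no yardstick for SINEs.

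**Figure D4:**
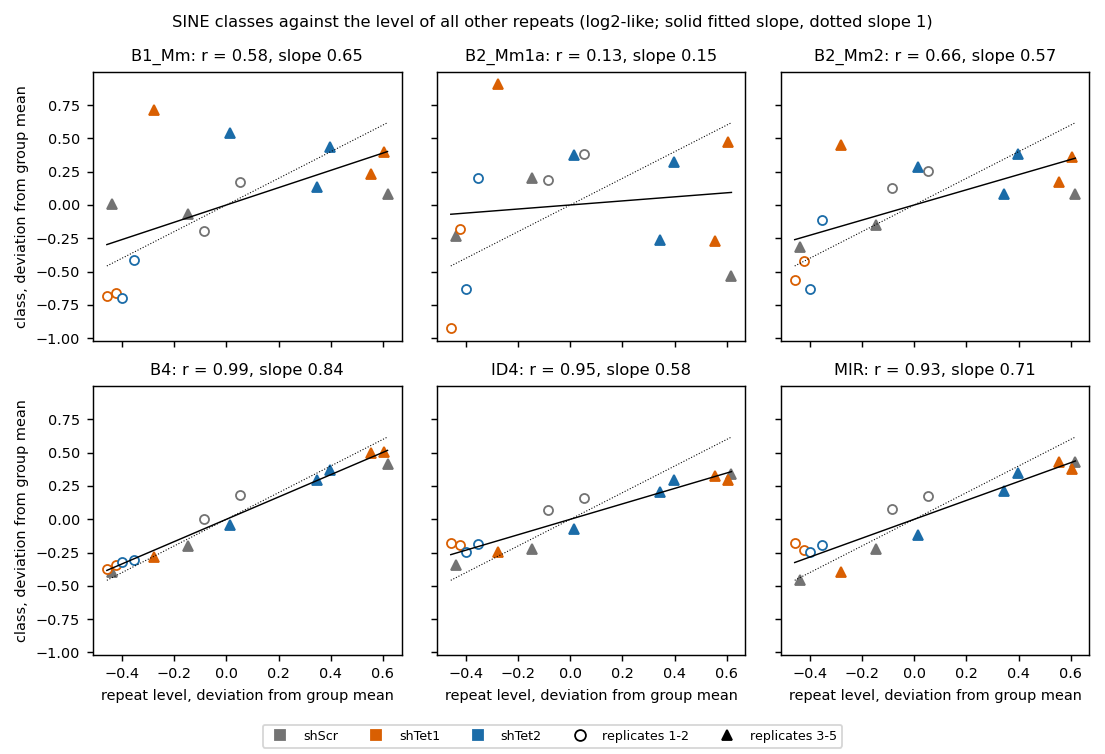
Deviation of 6 SINE classes from their group mean (y axis, log2-like) against that of the repeat level (x axis, log2-like) in 15 libraries, coloured by group, with circles for replicates 1 and 2 and triangles for replicates 3 to 5. Solid lines have the fitted slope and dotted lines a slope of 1, and B4, ID4 and MIR lie along their lines whereas B2_Mm1a, with r = 0.13, does not.

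The relation of the young classes did not hold in the same way in all libraries. Within replicates 3 to 5 (9 libraries), r was −0.63 in B2_Mm1a, −0.44 in B1_Mm and 0.24 in B2_Mm2, the highest of the young, whereas the older classes had r = 0.77 to 1.00. Within replicates 1 and 2 (6 libraries), young classes had r = 0.54 to 0.97 and older ones −0.34 (MIRc) to 0.97 (B4), and the permutations could not give a p below 0.25. Without shTet1 3 and shScr 4, the libraries farthest from the median level, r was 0.21 to 0.67 in the young and 0.61 to 0.99 in the older. Since the repeat level had a gap between the 5 highest libraries and the others, r was also computed over the other 10 alone, where young (0.62 to 0.79) and older classes (0.46 to 0.95) overlapped and no class passed the threshold.

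The 5 libraries of high repeat level show where the families parted. MIR was 14.70 to 14.96 in them and 14.03 to 14.70 in the other 10, with no overlap before rounding. B4 was 15.63 to 15.83 against 14.89 to 15.59. In contrast, B1_Mm was 16.10 to 16.68 against 15.18 to 16.79, and B2_Mm1a was 18.16 to 19.44 against 17.51 to 19.49. The median of the 5 exceeded that of the 10 by 0.74 in B4, 0.57 in MIR, 0.48 in ID4 and 0.52 in B3, by 0.23 in B1_Mm and by −0.07 in B2_Mm1a. All 5 were above the 10 in 4 of 26 older SINEs (B4, B4A, MIR and MIRc) and in 0 of 6 young. The same held for 48.0% of the 1155 classes outside the SINEs, but these set the level by which the 5 libraries were picked and are no yardstick for SINEs. These libraries were singled out by their repeat level and are no group of the study, and the part of the high receptor reads noted above was not tested.

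Once the fitted share of the repeat level was removed, older SINEs had little spread left. The SD within groups was 0.17 to 0.38 in the older and 0.38 to 0.53 in the young before removal. After it the SD was 0.06 (B4A) to 0.14 (RSINE1) in the older and 0.30 (B2_Mm2) to 0.55 (B2_Mm1a) in the young, beside a median of 0.24 over all tested classes. Every young class was thus above, and every older class below, that median. All SINE values were 11.86 or more, whereas the median of the classes outside the SINEs was 7.75 to 8.87 by library. No comparison with classes of like level was made, and spread can depend on level. The median correlation of the remaining deviations across 15 libraries was 0.82 over the 325 pairs of older classes (−0.89 to 0.98). Over the 15 pairs of young ones it was 0.87 (0.78 to 1.00), highest between B2_Mm1a and B2_Mm1t. All classes of a library share its depth and preparation, and depth differed between libraries. The alignment kept 1 position for a read with several equally good ones, so that reads may pass between classes of like sequence. What part this had in the correlations was not tested. B1_Mm with B2_Mm1a, of unlike origin, had 0.78. Young with older pairs had a median of −0.14.

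**Figure D5:**
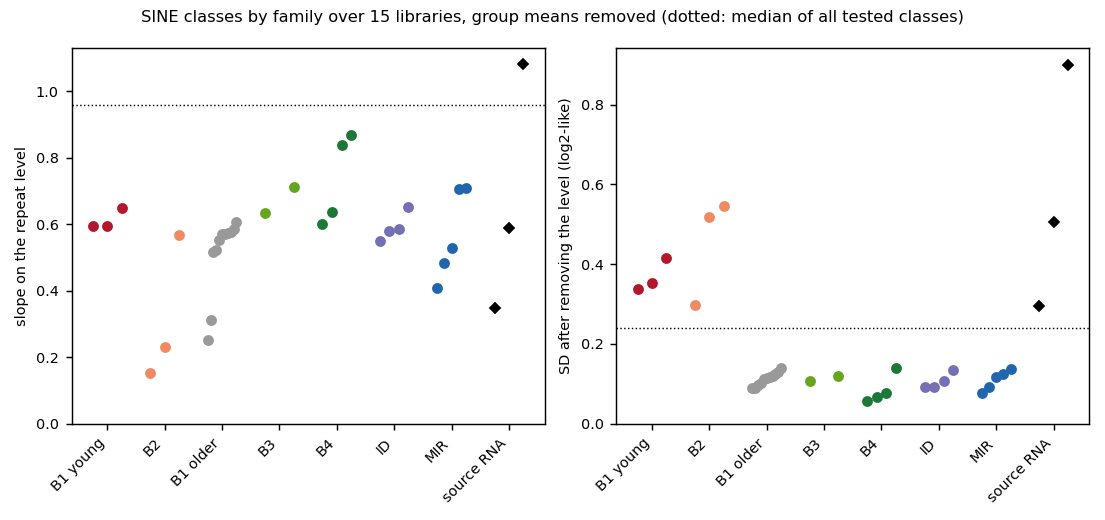
Slope on the repeat level (left) and SD within groups after removing it (right, log2-like) for each SINE class by family and for 3 source RNAs (diamonds), over 15 libraries, with the median of all tested classes dotted. Older classes have SDs of 0.06 to 0.14, all below the dotted line at 0.24, and young classes 0.30 to 0.55.

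The classes outside the SINEs were ranked by the correlation of their remaining deviations with the median over the young classes across 15 libraries. The first 5 of 1155 were (TAAA)n at 0.98, (TTTA)n at 0.98, tRNA-Trp-TGG at 0.94, the LTR class RLTR25B at 0.93 and tRNA-Tyr-TAC at 0.93. The simple repeats are A-rich on 1 strand, as are the tails of SINEs, and tRNAs are made by RNA polymerase III like SINEs themselves. RLTR25B is neither a simple repeat nor a tRNA, and the part of these features in the ranking was not tested. (TAAA)n was 11.98 and 12.27 in shTet1 1 and 2 against 12.86 to 13.32 in shScr, and was 13.06 to 13.56 in the other shTet1 libraries. tRNA-Tyr-TAC spanned 7.73 (shTet1 1) to 11.34 (shTet1 5 and shTet2 5). All classes of a library share its depth and preparation, and depth differed between libraries. The correlations describe these libraries only and carry no test. Of the L1 classes, whose machinery moves SINEs, only L1Md_Gf, L1Md_T and L1Md_A were looked up. These ranked far lower, at places 189 (0.37), 271 (0.22) and 566 (−0.13). Before the repeat level was removed, their correlations with the young median were 0.65, 0.62 and 0.44 in the same order.

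The source RNAs of the SINE families were placed in the same ranking. 7SLRNA, the class of the RNA from which B1 descends, ranked 43 of 1155 in likeness to the young classes (0.76), and BC1_Mm, the class of the RNA behind ID elements, ranked 35 (0.80), and 4.5SRNA, a B1-related RNA of rodents, ranked 158 (0.43). 7SLRNA was 17.57, 17.92, 17.88, 17.98 and 17.36 in shScr. It was 17.43, 17.58, 18.03, 18.05 and 18.07 in shTet1 and 18.15, 17.51, 18.92, 18.18 and 18.58 in shTet2. It was above every shScr library in 4 of 5 shTet2 libraries, and the difference of 0.53 (95% confidence interval 0.02 to 1.03, unadjusted p = 0.0409) did not pass after adjustment (limma adjusted p = 1.000). BC1_Mm was 13.43, 13.56, 14.22, 14.55 and 13.49 in the shScr libraries, 13.08, 13.25, 14.36, 14.21 and 14.67 in those of shTet1 and 13.35, 12.85, 14.64, 14.29 and 14.54 in those of shTet2. In both knockdowns replicates 1 and 2 were below the other libraries of the group, and its slope on the repeat level was 1.08, above that of every SINE. 4.5SRNA was the most variable of the 3, with 14.18 to 16.14 in shScr, 14.21 to 15.95 in shTet1 and 14.56 to 17.54 in shTet2. Its difference of 1.11 between shTet2 and shScr (0.07 to 2.14, unadjusted p = 0.0374) did not pass either (limma adjusted p = 1.000), and was −0.35 within replicates 1 and 2 and 2.08 within replicates 3 to 5.

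The genes of the RNA polymerase III machinery, which transcribes SINEs, gave no call in the fit on groups alone. Of 19 genes listed and tested, 0 passed in shTet1 against shScr (0.0718% of all tested genes), 0 in shTet2 against shScr (0.39%) and 0 in shTet2 against shTet1 (4.24%), and 1, 3 and 2 had an unadjusted limma p under 0.05, as had 2295, 2257 and 3057 of all 19490 tested genes. With the replicate number as a block, 1 rose in shTet1 (4.80% of all tested genes passed), 1 rose and 1 fell in shTet2 against shScr (4.31%), and 2 were lower in shTet2 than in shTet1 (11.2%). Gtf3a, the factor TFIIIA of 5S RNA genes, was 10.22 to 10.86 in shScr, 10.67 to 11.18 in shTet1 and 10.67 to 11.03 in shTet2, so that the groups overlapped. It was 0.41 higher in shTet1 (limma adjusted p = 0.232, and 0.0297 with the block) and 0.38 higher in shTet2 (0.281, and 0.0434 with the block). Bdp1, a subunit of TFIIIB, was 12.33 to 13.08 in shScr and 11.92 to 12.58 in shTet2, a difference of −0.53 (limma adjusted p = 0.169, and 0.00493 with the block). Gtf3c4, a subunit of TFIIIC, was 10.86 to 11.18 in shTet1 and 10.49 to 10.99 in shTet2, a difference of −0.35 (limma adjusted p = 0.135, and 0.0185 with the block). Against shScr, Gtf3c4 in shTet2 differed by −0.32 (0.282, and 0.0512 with the block). Between shTet2 and shTet1, Bdp1 differed by −0.37 (limma adjusted p = 0.266, and 0.0164 with the block). Maf1, the repressor of RNA polymerase III, differed by 0.26 between shTet2 and shTet1 (limma adjusted p = 0.367), and Polr3a and Polr3f, subunits of the polymerase, by −0.26 and −0.24 between shTet1 and shScr (limma adjusted p = 0.523 and 0.616).

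A second list held 15 factors that bind SINE RNA or act on chromatin at SINEs, and it gave 0 calls in each comparison on groups alone (limma), with 1, 1 and 3 at an unadjusted p under 0.05 beside the same counts over all genes. With the block, 1 passed in shTet1 against shScr (4.80% of all tested genes), 0 in shTet2 against shScr (4.31%) and 3 in shTet2 against shTet1 (11.2%). Srp9, which binds the Alu-like fold of 7SL and B1 RNA, was 10.40 to 11.03 in shScr, 9.75 to 10.70 in shTet1 and 10.36 to 10.68 in shTet2. It differed by −0.49 between shTet1 and shScr (limma adjusted p = 0.202, and 0.0326 with the block) and by 0.40 between shTet2 and shTet1 (0.200, and 0.0433 with the block). Suv39h2, a methyltransferase of histone H3, was 10.63 to 10.96 in shScr, 10.79 to 11.01 in shTet1 and 10.39 to 10.59 in shTet2. In shTet2 it was lower than in shTet1 by 0.37 (difference −0.37, limma adjusted p = 0.0642, and 0.0158 with the block). From shScr it differed by −0.31 in shTet2 (limma adjusted p = 0.251). Adar, which edits double-stranded RNA such as that of paired SINEs, was 9.43 to 9.78 in shTet2 and 9.92 to 10.36 in shTet1, a difference of −0.45 (limma adjusted p = 0.128, and 0.0301 with the block). How many of all tested genes had groups free of overlap was not counted, so that the ranges of Suv39h2 and Adar are a description only. Adnp, which holds SINEs silent, differed from shScr by −0.36 in shTet1 and −0.34 in shTet2 (limma adjusted p = 0.615 and 0.640), and Adar by 0.20 and −0.25 (limma adjusted p = 0.675 and 0.596). The nuclear RNAs Malat1, Neat1 and Airn (the last at or near the table's value for 0 reads), listed as RNAs that stay in the nucleus, gave 0 calls with and without the block, with differences from shScr of −0.25 to −0.09 in shTet1 and −0.04 to 0.07 in shTet2.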

How the data were processed

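Total RNA of 15 libraries (3 groups of 5) was extracted with QIAzol or a Quick-RNA kit and made into directional, rRNA-depleted libraries. The authors trimmed reads with Trim Galore 0.3.3, aligned them to mm9 with TopHat2 2.0.9 keeping 1 position per read, counted reads per gene and per RepeatMasker class in Seqmonk, and deposited variance-stabilised values (DESeq2), which are on a log2-like scale. Whether counting used strand is not given in the sources used here. Undoing the transformation returned a whole number of reads, to within 0.01, for 100% of the values over the minimum of the table, and these reads were used for depth and shares only.

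Classes above the table minimum in at least 5 libraries were tested (1187 of 1217, and 19490 of 26061 genes) with limma 3.58.1 in R 4.3.3, fitting the 3 groups together, with the variance prior following mean level and Benjamini-Hochberg adjustment over all tested classes or genes. The threshold was an adjusted p under 0.05. Single classes were also tested by exact permutation of 5 against 5 libraries (252 splits, two-sided). Relations to the repeat level used 100000 permutations within groups. Python 3.11.15 with numpy 2.4.6, pandas 2.3.3 and matplotlib 3.10.9 were used for tables and plots, and the fits were tested on simulated data. SINE members and gene lists were chosen with earlier results of these data known. Classes named with full values were, per comparison, the 3 SINEs of smallest p, together with 1 class per family, B1_Mm, B2_Mm2, B3, B4, ID4 and MIR. Named genes were the 3 of smallest p in each list and comparison. Others were named as the outermost of their family or set. Alternatives were another scaling, filter, variance model, covariate, replicate block or set of libraries. Same-numbered libraries deviated together in genes for shTet1 with shScr (r = 0.37 to 0.66) and shTet2 with shTet1 (0.33 to 0.73) in each of the 5 pairs, whereas replicate 3 of shTet2 with shScr had 0.01. The pairing thus comes from the data and the replicate numbers, not from a stated shared culture.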

Additional observations from a re-analysis of the deposited data

How the results depend on the processing

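No SINE passed in any comparison under the alternatives run except array weights, which called 7 between shTet2 and shTet1. The replicate block left 0 SINEs called in each comparison, with a smallest adjusted p of 0.793 between shTet2 and shTet1 (limma), and moved the calls over all classes there from 3 to 5. It gave 1, 2 and 2 calls among RNA polymerase III genes (shTet1 with shScr, shTet2 with shScr, shTet2 with shTet1) and 1 and 3 among SINE factors (first and last), where the fit without it gave 0. All-class calls between shTet2 and shTet1 were 9 when centred, 10 with quantile normalisation, 13 with the level as covariate, 10 without high-receptor libraries, 15 when centred with the block (chosen after seeing the data, as was the use of the 10 lowest libraries), and 0 with only the groups compared. The relation to the repeat level passed for 0 SINEs within the 10 libraries of lowest level, where 26 had an unadjusted p under 0.05, and for 26 to 30 on leaving out 1 library. With repeat reads outside SINEs per gene read as the level it passed for 30 SINEs (78.9% of all tested classes). Without removing group means it passed for 29 (80.0%). Within replicates 1 and 2 no arrangement could pass. For these and the reversals below, the cause was not tested.

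Within replicates 3 to 5 the differences of shTet1 from shScr turned to 0.14 (B1_Mm), 0.13 (B1_Mus1), 0.24 (B2_Mm1t), 0.24 (B2_Mm2), 0.14 (B3), 0.15 (B4), 0.10 (ID4) and 0.12 (MIR), those of shTet2 from shScr to 0.19 (B3), 0.18 (B4), 0.14 (ID4) and 0.19 (MIR), and the correlations with the level to −0.44 (B1_Mm) and −0.63 (B2_Mm1a). Within replicates 1 and 2 shTet2 differed from shScr by −0.47 (B1_Mm), −0.12 (B2_Mm1a), −0.16 (B2_Mm1t) and −0.41 (B2_Mm2). Others from shScr were −0.069 (B1_Mm, reads per 1000000), −0.020 (B2_Mm2, quantile) and 0.016 (MIR, without high-receptor libraries). Between shTet2 and shTet1, B3, B4, ID4 and MIR turned to −0.039, −0.040, −0.095 and −0.042 when centred (with or without the block), −0.22, −0.036, −0.15 and −0.058 with quantile normalisation, and −0.16, −0.16, −0.21 and −0.16 in reads per 1000000. With the level as covariate B4, ID4 and MIR had −0.023, −0.050 and −0.010, and ID4 −0.019 within replicates 1 and 2. Leaving out 1 library, ranges crossing 0 were −0.22 to 0.00322 for MIR in shTet1 with shScr, −0.058 to 0.25 (B1_Mm), −0.18 to 0.022 (B4), −0.17 to 0.00136 (ID4) and −0.15 to 0.069 (MIR) in shTet2 with shScr, −0.020 to 0.16 (B3), −0.026 to 0.19 (B4), −0.062 to 0.093 (ID4) and −0.034 to 0.17 (MIR) in shTet2 with shTet1, and −0.084 to 0.33 for the correlation of B2_Mm1a with the level.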
